A study of Mus musculus with 8 samples.

Results

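Genes that are expressed by the oocyte were examined in the ovaries of obese Lethal Yellow (LY) mice given pioglitazone or vehicle. The list held 42 genes, assembled by their known expression in oocytes with no measured value in the rule, out of 18069 genes named on the array. Of the 42 genes, 39 had a probe that the annotation assigned to that gene alone, and each gene was read from its brightest probe. The probes for Nlrp4a and Nlrp4c are shared with Nlrp4e, and that for Obox1 with Obox2, so the expression of these 3 genes was not analysed here.

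All 8 mice were female heterozygous Lethal Yellow animals of genotype C57BL/6J Ay/a, in which the Ay allele drives the agouti gene throughout the body. In the pioglitazone group, 4 mice received 0.1 mg of pioglitazone in DMSO daily by gavage, according to the labels. In the vehicle group, 4 mice received DMSO alone. Treatment ran for 60 days, starting at 120 days of age, and ovaries were collected at 180 days. The methods of the study state a lower daily dose than the labels, and both are given as a dose per mouse. Pioglitazone is a thiazolidinedione, an insulin sensitiser that activates the nuclear receptor PPARγ. One whole ovary per mouse was hybridised to its own CodeLink array, so each value mixes the oocytes with granulosa, theca, luteal, vascular and stromal cells. In such bulk tissue, fewer oocytes and less RNA per oocyte cannot be told apart. The stage of the estrous cycle at collection is not given in the sources used here, and lean non-mutant mice were not analysed here.

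Intensities were expressed in relative intensity units, in which the median probe of an array is 1, and 0.2 is the limit of sensitivity. Levels of different genes were not compared, because each probe binds its target with its own strength. Sums over a list of genes were compared only between mice, and the brightest probes weigh most in them. The 8 arrays correlated with each other at 0.937 to 0.989, and 82.5% to 83.9% of probes reached the limit. Markers of the labelled tissue were detected, in that 35 of the 39 oocyte genes, 11 of 12 granulosa markers and 6 of 6 luteal markers reached 0.2 on every array. The mice differed widely in cell type markers within each group. Summed luteal markers spanned 133 to 330 units in pioglitazone-treated mice and 263 to 378 units in vehicle-treated mice. In pioglitazone mouse 1, Hsd3b1 alone gave 113 of the 133 units. The steroidogenic theca gene Cyp17a1 spanned 9.07 to 228 units in pioglitazone-treated mice and 7.17 to 297 units in vehicle-treated mice.

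During its growth in the follicle, the oocyte builds a glycoprotein coat, the zona pellucida, and stores messenger RNA and protein for the first divisions of the embryo. The basic helix-loop-helix factor Figla, with Nobox, Lhx8, Sohlh1 and Sohlh2, directs the early oocyte programme in mice. Figla acts on the zona genes through E-boxes, short elements of the form CANNTG. Nlrp5, Ooep and Tle6 form the subcortical maternal complex, and Padi6 is needed for the cytoplasmic lattices in which maternal proteins are stored.

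The windows of 250 bases upstream of the annotated start were read for 4 genes on which the results turn, 2 whose levels varied together between mice (Zp3 and Zar1) and 2 that were lower with pioglitazone (Padi6 and Gja4). They come from RefSeq on build GRCm38.p6 and are printed 5′ to 3′ on the strand of the gene, with each CANNTG in capitals. The windows lie at chr5:135979855-135980104 (+) for Zp3, chr5:72581085-72581334 (-) for Zar1, chr4:140742644-140742893 (-) for Padi6 and chr4:127314040-127314289 (-) for Gja4.
Zp3: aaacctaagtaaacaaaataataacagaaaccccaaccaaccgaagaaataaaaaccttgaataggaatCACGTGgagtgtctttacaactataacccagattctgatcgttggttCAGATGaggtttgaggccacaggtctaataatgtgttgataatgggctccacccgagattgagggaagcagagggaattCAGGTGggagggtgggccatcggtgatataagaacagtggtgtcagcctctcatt
Zar1: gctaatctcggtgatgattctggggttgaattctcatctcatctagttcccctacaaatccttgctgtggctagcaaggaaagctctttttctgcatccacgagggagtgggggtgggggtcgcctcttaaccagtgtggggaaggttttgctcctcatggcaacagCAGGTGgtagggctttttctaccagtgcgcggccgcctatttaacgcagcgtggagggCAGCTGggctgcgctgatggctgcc
Padi6: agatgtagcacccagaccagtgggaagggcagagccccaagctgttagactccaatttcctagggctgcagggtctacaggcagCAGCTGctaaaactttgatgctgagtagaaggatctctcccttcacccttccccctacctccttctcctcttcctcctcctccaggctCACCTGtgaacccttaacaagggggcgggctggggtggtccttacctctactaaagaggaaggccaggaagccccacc
Gja4: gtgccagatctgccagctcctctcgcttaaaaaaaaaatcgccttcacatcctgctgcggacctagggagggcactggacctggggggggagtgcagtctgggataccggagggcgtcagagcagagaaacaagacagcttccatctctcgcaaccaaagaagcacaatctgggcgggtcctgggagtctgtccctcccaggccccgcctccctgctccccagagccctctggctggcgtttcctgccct
The Zp3 window held 3 such elements, beginning 181, 134 and 55 bases before the start, and that of Zar1 held 2, at 83 and 25 bases. The Padi6 window held 2, at 166 and 78 bases, and the Gja4 window held 0. Among other genes that varied with Zp3 (below), the window held 5 for Sohlh1, 1 each for Nlrp4f and Tcl1, and 0 for Nlrp2. The element reads the same on both strands. It was present in 31 of the 36 oocyte genes with a RefSeq window (86.1%) and in 66.0% of the windows of all 27025 genes. The 36 were drawn from the full list of 42 and include Nlrp4a, Nlrp4c and Obox1. The homeobox core TAATTG or TAATTA, searched on both strands, was present in 3 of the 36 (8.33%) and in 11.5% of all windows. A match is a description of the letters and shows no binding.

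The first question was whether pioglitazone changed the oocyte genes. Padi6 and Gja4 were lower in pioglitazone-treated mice, with ratios of the means of 0.824 and 0.785, and the remaining tested genes did not pass the unadjusted threshold. No oocyte gene passed after adjustment. Of the 39 genes, 38 passed the filter on dim probes, which required a group mean of at least 0.2. At an unadjusted p under 0.05 (limma), 2 of the 38 were called lower, against 3.53% of all 30634 probes tested, and 0 were called higher, against 1.97% of all probes. In either direction 5.5% of all probes were called. After Benjamini-Hochberg adjustment 0 probes of the array passed, and the smallest adjusted p was 0.599. The groups did not overlap for the same 2 genes, against 3.13% of all probes with all pioglitazone-treated mice lower, and for 0 genes in the higher direction, against 1.46%. The count of 2 genes, 5.26% of the 38, was thus near these shares. With the replicate number as a block, 2635 probes and 1 oocyte gene, Gja4, were called. Without pioglitazone mouse 4, 737 probes and 0 lower oocyte genes were called, and without pioglitazone mouse 1, 2443 probes and 4 lower oocyte genes (Gja4, Pou5f1, Sohlh2 and Nlrp9a).

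Log2 fold changes, pioglitazone over vehicle, were positive for 19 and negative for 19 of the 38 genes, with a median of -0.0020, against a median of -0.034 over all probes. With quantile normalization, under which 37 genes passed the filter, the split became 24 positive and 13 negative and the median 0.038, and with cyclic loess normalization the split was the same and the median 0.049. The changes ran between -0.49 for Nlrp9a and 0.43 for Zp2, so that none reached 0.5 in size with median scaling. With quantile normalization Zp2 had 0.50 and Nlrp9a -0.52, and with cyclic loess normalization Zp2 had 0.51 and Nlrp9a -0.51. The SD of log2 values within groups ran between 0.07 for Padi6 and 1.05 for Kit, with a median of 0.38, and was therefore as large as most of the differences.

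**Figure D1:**
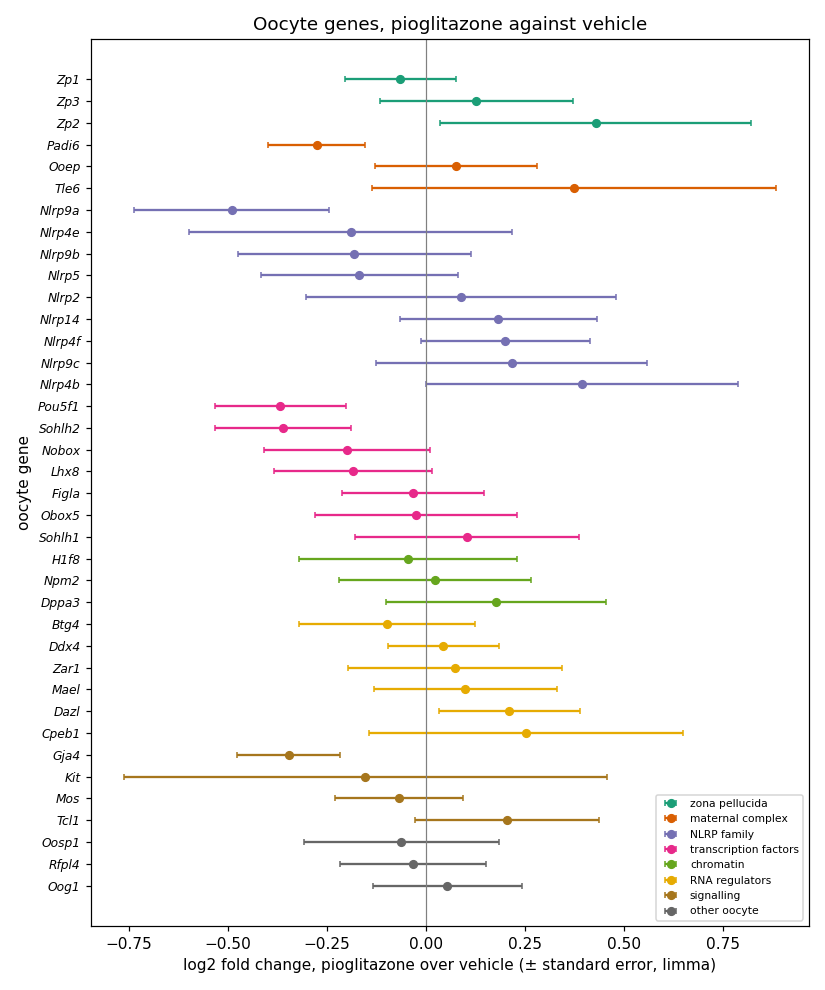
Log2 fold changes of the 38 tested oocyte genes, pioglitazone over vehicle (horizontal axis), with standard errors from limma as bars and colours for the role of the gene. The points lie on both sides of 0, 19 on each, and Padi6 and Gja4 are lower with short bars.

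Padi6, a peptidylarginine deiminase of the oocyte, had 6.02, 5.80, 5.68 and 6.04 units in pioglitazone-treated mice 1 to 4, against 7.66, 6.70, 6.82 and 7.37 units in vehicle-treated mice 1 to 4. All pioglitazone-treated mice lay below all vehicle-treated mice, and the pioglitazone values were tightly grouped. The means were 5.89 ± 0.17 units with pioglitazone and 7.14 ± 0.46 units with vehicle (SD, n = 4 each), a ratio of 0.824. The log2 fold change was -0.28 with a standard error of 0.12, and limma gave an unadjusted p of 0.0485 (adjusted p = 0.837) beside an exact 2-sided permutation p of 0.0286, the smallest that 4 against 4 mice can give. With the replicate number as a block the unadjusted limma value was 0.0674, and leaving out any mouse other than vehicle mouse 3 also took it above 0.05, at log2 fold changes between -0.31 and -0.24.

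Gja4 encodes connexin 37, which forms the gap junctions between the oocyte and its granulosa cells and is also found in endothelium. It had 3.23, 3.19, 3.25 and 2.85 units in pioglitazone-treated mice, against 4.05, 3.61, 4.40 and 3.90 units in vehicle-treated mice. Again the groups did not overlap, and pioglitazone mouse 4 was the lowest of all. The means were 3.13 ± 0.19 units with pioglitazone and 3.99 ± 0.33 units with vehicle (SD, n = 4 each), a ratio of 0.785. The log2 fold change was -0.35 with a standard error of 0.13 (limma, p = 0.0244, adjusted p = 0.837, exact permutation p = 0.0286). Without pioglitazone mouse 4 it was -0.30 and without vehicle mouse 1 it was -0.34, and in both cases it no longer passed the unadjusted threshold.

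Since Gja4 is also a vascular gene, the endothelial markers were read beside it. Of 8 markers listed, 7 had a probe and 6 were tested. Of these, 1 was called lower and 0 higher, against 3.53% and 1.97% of all probes. The lower one was Emcn, the sialomucin endomucin of capillary and venous endothelium, with a log2 fold change of -0.45 (limma, p = 0.0219, adjusted p = 0.837, exact permutation p = 0.0571). Emcn also had a second tested probe, which went the other way, with a log2 fold change of 0.16 and a standard error of 0.20. The VEGF receptor gene Kdr had a log2 fold change of -0.17 with a standard error of 0.17. Summed endothelial levels were 30.6 to 40.3 units in pioglitazone-treated mice and 32.0 to 47.0 units in vehicle-treated mice, which overlapped. Cdh5, the gene of VE-cadherin, stayed under the limit of 0.2 on all 8 arrays. The part of endothelial cells in the Gja4 difference was not tested.

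The luteal and granulosa markers were read beside Padi6 and Gja4 as well. The log2 fold change was negative for 6 of 6 luteal markers (median -0.78), of which 0 were called. It was positive for 11 of 11 tested granulosa markers (median 0.32), of which 1 was called higher. This was Fst, the gene of the activin-binding protein follistatin (limma, p = 0.0494, adjusted p = 0.837, exact permutation p = 0.114). Over all 30634 probes tested, 44.3% had a positive log2 fold change, 1.97% were called higher and 3.53% lower. Summed granulosa markers were 141 to 236 units in pioglitazone-treated mice and 125 to 175 units in vehicle-treated mice, which overlapped. The part of these cell types in the Padi6 and Gja4 differences was not tested.

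**Figure D2:**
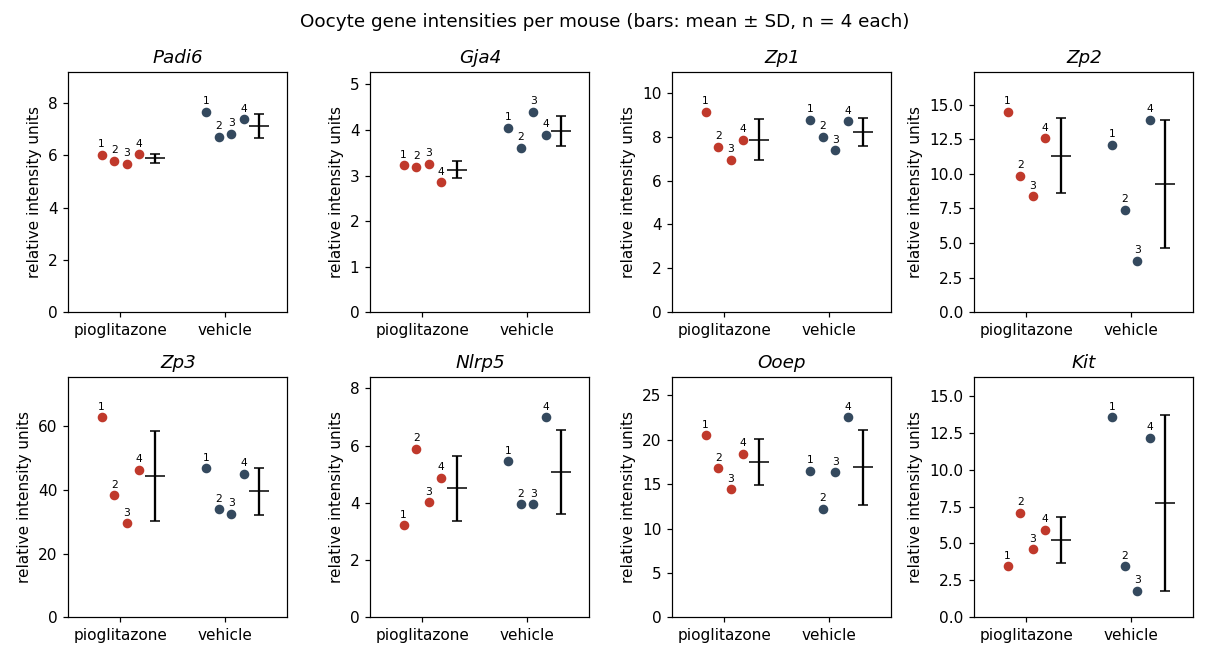
Intensity of 8 oocyte genes per mouse (vertical axes, relative intensity units, starting at 0), with pioglitazone-treated mice on the left and vehicle-treated mice on the right of each panel, the mouse number above each point, and bars for mean and SD (n = 4 each). The groups are apart for Padi6 and Gja4 and overlap for the other 6 genes.

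The zona pellucida genes did not differ beyond their spread. Zp1, whose protein crosslinks the zona filaments, had 9.13, 7.53, 6.96 and 7.85 units in pioglitazone-treated mice, against 8.77, 8.0, 7.38 and 8.70 units in vehicle-treated mice. The log2 fold change was -0.065 with a standard error of 0.14, and it was 0.010 with quantile and 0.018 with cyclic loess normalization. Zp2, which carries the sperm-binding domain of the mouse zona, had 14.5, 9.88, 8.37 and 12.6 units with pioglitazone, against 12.1, 7.41, 3.70 and 13.9 units with vehicle. The groups overlapped throughout, and vehicle mouse 3 was the lowest. The difference of 0.43 on the log2 scale had a standard error of 0.39 (exact permutation p = 0.429). Without vehicle mouse 3 it was 0.043, and without vehicle mouse 4 it was 0.68. Zp3, the partner of Zp2 in the zona filament, had 62.8, 38.3, 29.5 and 46.3 units with pioglitazone, against 46.8, 33.9, 32.4 and 45 units with vehicle. In both groups mouse 1 was highest, followed by mice 4, 2 and 3, and the log2 fold change was 0.13 with a standard error of 0.24.

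In the subcortical maternal complex only Padi6, its lattice-related neighbour in the list, passed the unadjusted threshold. Nlrp5, also known as Mater, had 3.22, 5.89, 4.01 and 4.88 units with pioglitazone, against 5.45, 3.95, 3.94 and 6.99 units with vehicle. Ooep had 20.5, 16.8, 14.4 and 18.4 units with pioglitazone, against 16.5, 12.2, 16.3 and 22.5 units with vehicle. The groups overlapped for both genes, and the log2 fold change was -0.17 for Nlrp5, with a standard error of 0.25, and 0.075 for Ooep, with a standard error of 0.20. Tle6, a co-repressor relative within the complex, was near the limit of sensitivity, with 0.089, 0.255, 0.322 and 0.137 units with pioglitazone and 0.058, 0.141, 0.253 and 0.174 units with vehicle. On the log2 scale the difference was 0.37 with a standard error of 0.51, and mouse 1 was the lowest of each group.

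Of the 9 tested NLRP family genes, which belong to the nucleotide-binding leucine-rich repeat proteins and are largely confined to oocytes and early embryos, 5 had positive and 4 negative log2 fold changes and 0 were called. The family has close relatives on the genome, and cross-hybridisation between them was not tested. Nlrp14 had 81.8, 48.0, 42.1 and 59.7 units with pioglitazone, against 62.5, 44.9, 36.6 and 58.3 units with vehicle. Mouse 1 was highest and mouse 3 lowest in each group, and the log2 fold change was 0.18 with a standard error of 0.25. Nlrp4e was dim and variable, with 0.304, 0.253, 0.075 and 0.213 units with pioglitazone, against 0.230, 0.165, 0.187 and 0.296 units with vehicle. The log2 fold change of -0.19 had a standard error of 0.41 and turned to 0.067 with a floor of 0.2 and to 0.25 without pioglitazone mouse 3. Nlrp9a had the lowest log2 fold change of all, -0.49 with a standard error of 0.25 (limma, p = 0.0761, exact permutation p = 0.143), at a mean of 0.234 ± 0.063 units with pioglitazone and 0.327 ± 0.080 units with vehicle (SD, n = 4 each). The other tested members overlapped too, and ranged over 1.21 to 3.22 units with pioglitazone and 1.04 to 2.76 units with vehicle for Nlrp2, and 2.26 to 5.73 units with pioglitazone and 2.99 to 4.28 units with vehicle for Nlrp9b. For Nlrp4b the ranges were 2.59 to 5.19 units with pioglitazone and 1.25 to 4.55 units with vehicle, and for Nlrp9c 0.395 to 0.881 units with pioglitazone and 0.303 to 0.814 units with vehicle.

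Of the 7 tested transcription factor genes, 6 had negative log2 fold changes and 1 a positive one, with a median of -0.18, and 0 were called. Pou5f1, the pluripotency factor Oct4 that the growing oocyte also makes, had 3.91, 2.78, 2.58 and 2.79 units with pioglitazone, against 3.54, 4.13, 4.19 and 3.55 units with vehicle. Pioglitazone mouse 1 lay within the vehicle values and the other 3 lay below them. The log2 difference was -0.37 with a standard error of 0.17 (limma, p = 0.0529, exact permutation p = 0.0857), and without pioglitazone mouse 1 it was -0.50 and passed the unadjusted threshold. Sohlh2, a helix-loop-helix factor of the early oocyte, had -0.36 with a standard error of 0.17 (limma, p = 0.0648, exact permutation p = 0.0571), at 0.994 ± 0.171 units with pioglitazone and 1.27 ± 0.16 units with vehicle (SD, n = 4 each). Without pioglitazone mouse 1, Sohlh2 had -0.44 and Nlrp9a had -0.61, and both passed it as well. Figla, the activator of the zona genes, spanned 1.37 to 2.16 units with pioglitazone and 1.44 to 1.98 units with vehicle. The homeobox genes overlapped as well, with 1.10 to 1.38 units with pioglitazone and 1.18 to 2.13 units with vehicle for Nobox, and 3.20 to 6.68 units with pioglitazone and 3.93 to 6.42 units with vehicle for Obox5.

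Chromatin proteins stored in the oocyte overlapped between the groups. H1f8, the linker histone of the oocyte, had 36.5, 20.9, 15.0 and 23.6 units with pioglitazone, against 27.4, 17.0, 24.5 and 27.1 units with vehicle. Its log2 fold change of -0.046 (standard error 0.28) became 0.017 with quantile and 0.058 with cyclic loess normalization. Npm2, a nucleoplasmin that decondenses sperm chromatin, averaged 12.5 ± 4.0 units with pioglitazone and 12.0 ± 2.5 units with vehicle (SD, n = 4 each). Dppa3, also known as Stella, which protects maternal DNA methylation in the zygote, spanned 6.38 to 10.3 units with pioglitazone and 4.53 to 11 units with vehicle. Dnmt3l, the cofactor of de novo DNA methylation at imprinted genes, averaged under 0.2 units in both groups and was not tested. Its values were 0.168, 0.220, 0.243 and 0.135 units with pioglitazone, against 0.090, 0.120, 0.033 and 0.191 units with vehicle, so 2 of the 8 mice exceeded the limit.

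Among the RNA regulators, 5 of 6 had positive log2 fold changes and 0 were called. Zar1, an RNA-binding protein required after fertilisation in mice, had 27.1, 15.9, 11.4 and 21.2 units with pioglitazone, against 19.1, 14.6, 14.4 and 21.1 units with vehicle. The log2 difference was 0.072 with a standard error of 0.27. Cpeb1, which controls cytoplasmic polyadenylation, averaged 1.29 ± 0.67 units with pioglitazone and 1.00 ± 0.33 units with vehicle (SD, n = 4 each). The germ cell helicase Ddx4 spanned 0.921 to 1.06 units with pioglitazone and 0.816 to 1.10 units with vehicle. Btg4, an adaptor for the decay of maternal messenger RNA, spanned 2.16 to 3.97 units with pioglitazone and 2.55 to 3.80 units with vehicle, and Mael, of the piRNA pathway, spanned 2.26 to 4.32 units with pioglitazone and 2.25 to 3.77 units with vehicle. Dazl, a translational regulator of germ cells, spanned 0.297 to 0.456 units with pioglitazone and 0.254 to 0.370 units with vehicle.

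Kit, the receptor for the Kit ligand that granulosa cells make, was the most variable oocyte gene when read from its brightest probe. It had 3.46, 7.05, 4.61 and 5.92 units with pioglitazone, against 13.5, 3.45, 1.80 and 12.2 units with vehicle. The vehicle-treated mice 1 and 4 lay above all the others, and vehicle mice 2 and 3 lay below all the pioglitazone-treated mice. Its log2 fold change was -0.15 with a standard error of 0.61, and a second Kit probe gave 0.0031 with a standard error of 0.20. The second probe had a within-group SD of 0.28 on the log2 scale, against 1.05 for the brightest. It did not repeat this order of the mice, with 1.08, 0.748, 0.715 and 0.928 units with pioglitazone, against 1.05, 0.658, 0.873 and 0.876 units with vehicle. Kit is a mast cell gene too. Of 6 mast cell markers, all tested, 0 were called, and their summed level was 9.39 to 14.3 units with pioglitazone and 11.7 to 13.7 units with vehicle. The brightest of them were the protease genes Tpsb2, with a log2 fold change of -0.27 (exact permutation p = 0.114), and Cma1, with 0.25 (exact permutation p = 0.143). A second Tpsb2 probe went the other way, with a log2 fold change of 0.36 and a standard error of 0.19.

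The remaining list members were Mos, Tcl1, Oosp1, Oog1 and Rfpl4, and all overlapped between the groups. Mos, the kinase of meiotic arrest, spanned 0.353 to 0.524 units with pioglitazone and 0.427 to 0.541 units with vehicle. Oosp1, which encodes a protein secreted by the oocyte, spanned 7.02 to 14.6 units with pioglitazone and 7.86 to 12.0 units with vehicle.

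A further 25 oocyte genes outside the list were read in the same way. Of these, 21 had a probe of their own and 19 were tested, of which 0 were called lower and 0 higher, 12 had positive and 7 negative log2 fold changes, and the median was 0.02. Gdf9, the growth factor by which the oocyte acts on granulosa cells, had 4.87, 5.65, 5.45 and 5.60 units with pioglitazone, against 5.39, 4.90, 6.39 and 6.66 units with vehicle. The groups overlapped, and the log2 fold change was -0.10 with a standard error of 0.15. The brightest probe of its relative Bmp15 was missing on 6 of the 8 arrays. A second Bmp15 probe had 0.466, 2.51, 2.05 and 0.810 units with pioglitazone, against 0.844, 1.05, 0.888 and 1.79 units with vehicle, with a log2 fold change of 0.12 and a standard error of 0.51.

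The second question was how the oocyte genes varied between mice. Most of them were high or low in the same mice within each group. Averaged over the 38 tested genes as a median deviation from the mean of each gene, pioglitazone mice 1 to 4 lay at 0.32, 0.02, -0.32 and 0.04 on the log2 scale, against 0.16, -0.19, -0.15 and 0.27 for vehicle mice 1 to 4. The same medians over all named genes stayed between -0.05 and 0.11. The main axis of variation over all tested probes (first principal component, group means removed) held 43.7% of the variance. On it, pioglitazone mice 1 to 4 lay at -65.5, 25.6, 52.9 and -13.0, and vehicle mice 1 to 4 at -53.7, 20.7, 45.0 and -12.1. The mice thus ran in the order 1, 4, 2 and 3 in both groups, as they did for Zp3. The part of this array-wide axis in the shared variation of the oocyte genes was not tested. Pioglitazone mouse 1 was the highest of its group for 26 of the 38 genes, and pioglitazone mouse 3 the lowest for 25. Among vehicle-treated mice, mouse 4 was the highest for 23 genes and mouse 3 the lowest for 20. The summed level over the 39 genes was 368, 258, 203 and 280 units in pioglitazone-treated mice, against 306, 221, 214 and 318 units in vehicle-treated mice, so the groups overlapped. Pioglitazone mouse 1 also stood apart in fat cell markers, whose summed level was 107 units there, against 14.4 to 33.0 units in the other pioglitazone-treated mice and 24.3 to 59.6 units in vehicle-treated mice. The fat cell hormone gene Adipoq had 40.2 units in that mouse, and Fabp4 and Lep were highest there too. The fat cell marker Cidec had 11.3 units there, close to the 11.1 units of vehicle mouse 3. The part of fat tissue in its oocyte gene levels was not tested.

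**Figure D3:**
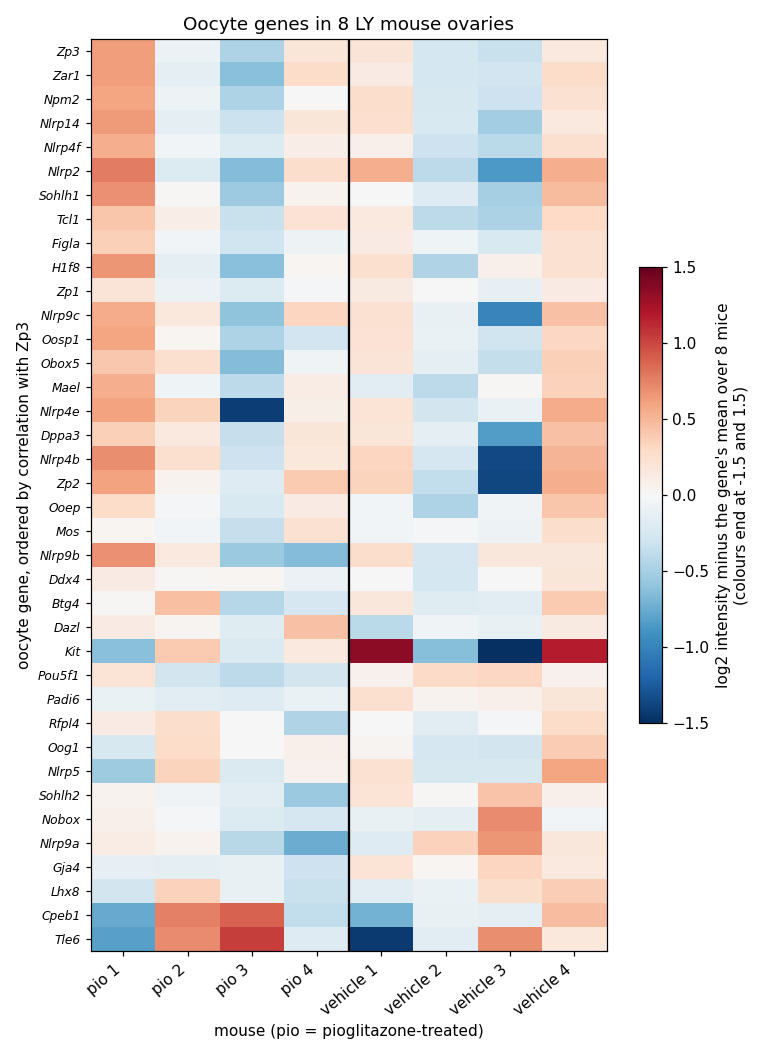
Log2 intensity of the 38 tested oocyte genes (rows, ordered by correlation with Zp3) in each mouse (columns, pioglitazone-treated on the left), as the difference from the mean of the gene over 8 mice. Most of the upper rows are red in pioglitazone mouse 1 and blue in pioglitazone mouse 3, and the lowest rows, Cpeb1 and Tle6, run the other way.

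Over all 703 pairs of the 38 genes, the median Pearson r across 8 mice was 0.374, and 25.7% of pairs had r over 0.7. Over the pairs of all 16002 named genes with complete values the median was 0.026 and 7.71% of pairs had r over 0.7. All genes of a mouse come from a single array, so pairs share that array. With the group means removed the medians were 0.441 for the oocyte genes and 0.030 for all named genes. Within roles the median was highest for the chromatin genes, 0.773 over 3 pairs, followed by 0.754 over the 3 zona pairs, 0.477 over 36 NLRP pairs and 0.403 over 15 pairs of RNA regulators. The median was 0.403 over the 3 pairs of other oocyte genes, 0.193 over 21 transcription factor pairs and 0.148 over 6 signalling pairs. It was -0.213 over the 3 pairs of Ooep, Tle6 and Padi6, listed under the maternal complex. Of these, Tle6 was under 0.2 units on 5 arrays, and Nlrp5 of the complex was counted with the NLRP family.

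Zp3 was then used as the yardstick, because its protein is a main component of the zona. Exact permutation p-values over the 40320 pairings of 8 mice were computed for all 16001 other named genes and adjusted over all of them. Among 37 oocyte genes, 7 were positively correlated with Zp3 at an adjusted p under 0.05 for r, against 1.04% of all named genes. Negatively correlated were 0 of them, against 2.09%. With Spearman's rho not all 7 passed, as given below. At an unadjusted p under 0.05, 19 of the 37 were positively correlated, against 12.2% of all named genes, and 1 negatively, against 10.8%. The median r with Zp3 was 0.720 for the oocyte genes and 0.123 for all named genes. An r over 0.9 was found for 8 of the 37 (21.6%) and for 1.41% of all named genes.

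Npm2 had r = 0.970 and Spearman's rho = 0.976 (exact permutation p = 0.000124 for r and 0.000397 for rho, adjusted p = 0.0239 for r). Its levels were 18.0, 11.3, 8.68 and 11.9 units in pioglitazone-treated mice, against 14.4, 10.1, 9.66 and 14.0 units in vehicle-treated mice. Zar1 had r = 0.977 and rho = 0.929 (exact p = 0.000471 and 0.00223, adjusted p = 0.0343 for r). Nlrp14 had r = 0.966 and rho = 0.976 (exact p = 0.000471 and 0.000397, adjusted p = 0.0343 for r). These genes encode a chromatin protein, an RNA-binding protein and an NLRP protein, so the shared variation crossed roles.

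The other 4 genes past the adjusted threshold were Nlrp4f, Nlrp2, Sohlh1 and Tcl1. Nlrp4f had r = 0.936 and rho = 0.833 (exact p = 0.00136 and 0.0154, adjusted p = 0.0481 for r), and Nlrp2 had r = 0.935 and rho = 0.952 (exact p = 0.00107 and 0.00114, adjusted p = 0.0456 for r). Sohlh1, the partner of Sohlh2, had r = 0.915 and rho = 0.833 (exact p = 0.000843 and 0.0154, adjusted p = 0.0421 for r). Tcl1, a coactivator of the kinase Akt, had r = 0.906 and rho = 0.833 (exact p = 0.00131 and 0.0154, adjusted p = 0.0477 for r). With rho in place of r, the adjusted exact p was 0.0363 for Npm2 and Nlrp14, 0.0452 for Nlrp2 and 0.0529 for Zar1. For Nlrp4f, Sohlh1 and Tcl1 it was 0.114. By rank, Zar1, Nlrp4f, Sohlh1 and Tcl1 thus did not pass the adjusted threshold. Pioglitazone mice 1 and 3 were farthest from the median of Zp3. Without them r was 0.907 for Npm2, 0.955 for Zar1, 0.971 for Nlrp14, 0.945 for Nlrp4f, 0.961 for Nlrp2 and 0.929 for Tcl1. For Sohlh1 it was 0.771 (exact p = 0.0528 over 6 mice), so that relation no longer passed without these mice.

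The exact p-values treat the 8 mice as exchangeable. Same-numbered arrays, however, correlated positively, as did some differently numbered ones, and Zp3 ranked the mouse numbers alike with pioglitazone and with vehicle. These p-values may therefore be too small. In an alternative chosen after seeing the data, the means of the replicate number and of the group were removed. This leaves 3 independent deviations, and its values carry no test. The median r with Zp3 was then 0.636 for the 37 oocyte genes, 29 of them above 0, and -0.046 for all named genes. Of the 7 genes past the adjusted threshold, Zar1 had 0.994, Npm2 0.883, Sohlh1 0.794, Nlrp4f 0.636, Nlrp14 0.583, Tcl1 0.435 and Nlrp2 0.251. For Zp2 r turned to -0.508, for Padi6 to -0.511, for Gja4 to 0.512 and for Tle6 to 0.450.

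Figla and the zona gene Zp1 had r = 0.902 and 0.873 with Zp3, with rho = 0.810 and 0.881 (exact p = 0.00265 and 0.00548 for r, 0.0218 and 0.00724 for rho). Their adjusted p for r was 0.0597 and 0.0756, and without pioglitazone mice 1 and 3 their r was 0.722 and 0.697, with exact p of 0.121 and 0.151. Zp2 had r = 0.754 and rho = 0.833 (exact p = 0.0275 and 0.0154, adjusted p = 0.162 for r), and without those mice r was 0.894. Zp2 was pulled down relative to Zp3 in vehicle mouse 3, at 3.70 units.

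Some oocyte genes did not follow Zp3. Padi6 had r = 0.138 and rho = 0.310 over the 8 mice (exact p = 0.739 and 0.462, adjusted p above 0.05), and r was 0.773 once the group means were removed. Within groups of 4 mice, its r was 0.898 with pioglitazone and 0.965 with vehicle. Gja4 had r = -0.234 and rho = -0.238 (exact p = 0.577 and 0.582), and -0.146 with the group means removed. Tle6 had a negative r of -0.741 and rho of -0.857 (exact p = 0.0346 and 0.0107, adjusted p above 0.05), and without pioglitazone mice 1 and 3 r was -0.597. Within the pioglitazone group, Nlrp5 and the oocyte gene Oog1 were lowest in mouse 1, in which Zp3 was highest. Over the 8 mice, Oog1 was lowest in vehicle mouse 3, and both genes were highest in vehicle mouse 4. Oog1 had 0.747, 1.07, 0.883 and 0.930 units with pioglitazone, against 0.909, 0.741, 0.732 and 1.15 units with vehicle.

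The genes nearest to Zp3 over the 8 mice were mostly not oocyte list members. Of the 10 named genes with the highest r, 1 was in the list, Zar1. The nearest were Tbc1d10a and Fam151a, both with r = 0.991, and Lgi4, with r = 0.978. Among the further oocyte genes, Astl, the oocyte protease ovastacin that cleaves Zp2 after fertilisation, had r = 0.942, and Gdf9 had r = -0.238.

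Markers of other cell types were set against Zp3 in the same way. Of 48 markers, 5 were positive and 11 negative at an unadjusted exact p under 0.05, against 12.2% and 10.8% of all named genes. The granulosa list had 2 of 11 positive, Kitl (r = 0.760) and Esr2 (r = 0.710), and 0 negative. The fat cell gene Lep was positive (r = 0.748) and the smooth muscle gene Des negative (r = -0.734). Kitl, Esr2, Lep and Des did not pass after adjustment. All 6 luteal markers had a negative r, between -0.925 and -0.753, each with an unadjusted exact p under 0.05 for r. For rho the exact p was 0.171 for Hsd3b1 and 0.0576 for Scarb1 and Ptgfr, which did not pass. With the means of the replicate number and of the group removed, r turned to 0.597 for Akr1c18 and was -0.319 for Ptgfr. For Star, Cyp11a1, Hsd3b1 and Scarb1 it then lay between -0.976 and -0.698. Cyp11a1, the side-chain cleavage enzyme that opens steroid synthesis, had r = -0.925 and rho = -0.881 (exact p = 0.00134 and 0.00724, adjusted p = 0.0479 for r). For rho its adjusted exact p was 0.0811. It had 10.7, 41.7, 59.4 and 23.7 units in pioglitazone-treated mice, against 30.0, 67.6, 68.2 and 46.1 units in vehicle-treated mice, and was lowest in mouse 1 of each group. Pecam1, an endothelial adhesion molecule gene, had r = -0.972 and rho = -0.952 (exact p = 9.9e-05 and 0.00114, adjusted p = 0.0230 for r). Its levels were 0.173, 1.09, 2.33 and 0.327 units with pioglitazone, against 0.458, 1.56, 1.39 and 0.712 units with vehicle. The endothelial list was mixed, in that 1 of its 6 tested markers was negative at an unadjusted exact p under 0.05, Pecam1, and 1 positive, Vwf, the gene of von Willebrand factor. Vwf had r = 0.773 and rho = 0.786 (exact p = 0.0258 and 0.0279, adjusted p = 0.158 for r), and 0.698 without pioglitazone mice 1 and 3.

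The theca enzyme Cyp17a1 ran with Zp3, at r = 0.884 and rho = 0.929 (exact p = 0.00320 and 0.00223, adjusted p = 0.0626 for r). It had 228, 75.6, 9.07 and 77.9 units with pioglitazone, against 297, 17.7, 7.17 and 170 units with vehicle. The theca and stroma list was mixed, as 3 of its 6 markers were negative at an unadjusted exact p under 0.05 and Cyp17a1 was the 1 positive marker. The collagen genes Col1a1 and Col1a2 had r = -0.938 and -0.917, with rho = -0.952 and -0.857 (exact p = 0.000471 and 0.00104 for r, 0.00114 and 0.0107 for rho, adjusted p = 0.0343 and 0.0450 for r). For rho their adjusted exact p was 0.0452 and 0.0983. Lum, the gene of the matrix proteoglycan lumican, had r = -0.891 and rho = -0.881 (exact p = 0.00389 and 0.00724, adjusted p = 0.0667 for r). Without pioglitazone mice 1 and 3 their r was -0.906, -0.742 and -0.613. Without pioglitazone mice 1 and 3, r was -0.879 for Cyp11a1, -0.922 for Pecam1 and 0.919 for Cyp17a1. With the means of the replicate number and of the group removed, r was -0.904 for Cyp11a1, -0.804 for Pecam1 and -0.0050 for Cyp17a1. Mouse 1 was thus the highest of each group for Zp3 and Cyp17a1 and the lowest for Cyp11a1 and Pecam1. The part of the mixture of cell types in the shared variation of the oocyte genes was not tested.

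**Figure D4:**
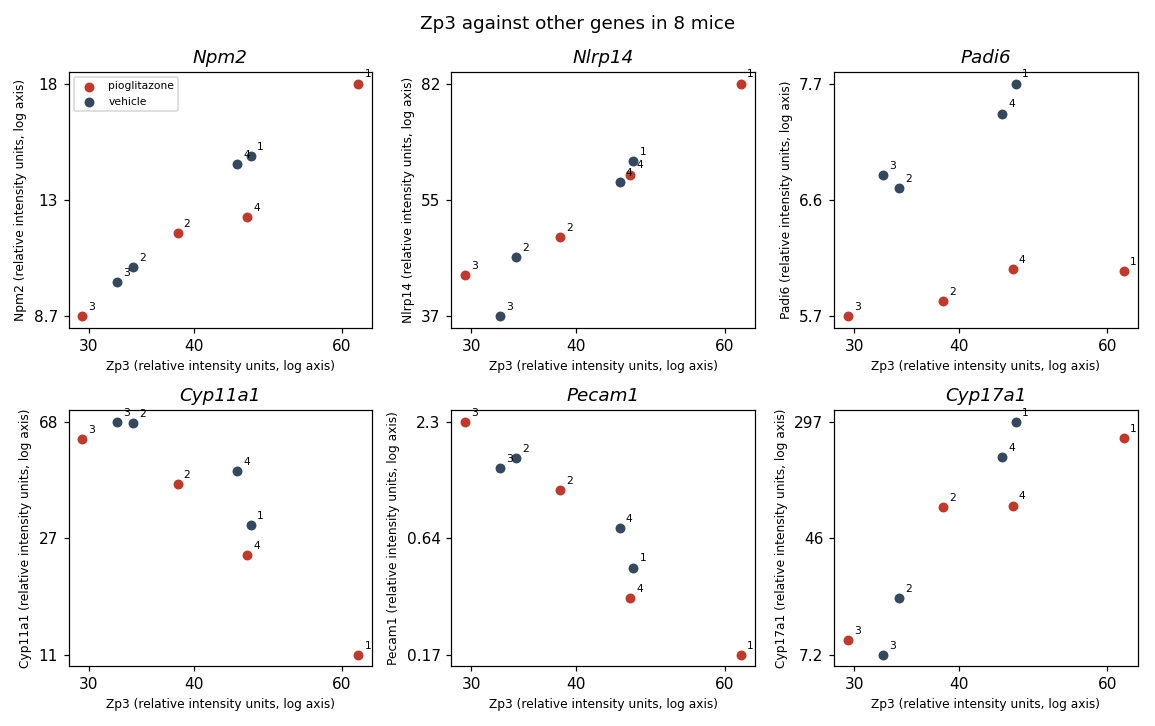
Intensity of 6 genes (vertical axes) against that of Zp3 (horizontal axes) in the 8 mice, both in relative intensity units on log axes, with the mouse number beside each point. Npm2, Nlrp14 and Cyp17a1 rise with Zp3, Cyp11a1 and Pecam1 fall with it, and Padi6 separates the 4 pioglitazone-treated mice below the 4 vehicle-treated mice.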

How the data were processed

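Total RNA of 1 ovary from each of 8 mice was hybridised to 1 CodeLink one-colour array each. The authors scanned the slides in GenePix, corrected the background in the CodeLink software and normalised each slide to its median in GeneSpring, and the deposited intensity is 1 linear value per probe and mouse. The methods also name a division by the median of each gene, of which the values show no sign. Missing spots numbered 47 to 211 per array.

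For this report the arrays were rescaled to a median of 1, a floor of 0.05 was set, and values were converted to log2. The platform annotation supplied the gene names, with 21615 of 36227 probes assigned to 1 gene and 681 to several. Probes entered the test if each group had 3 or more values and either group mean reached 0.2. The groups were compared with limma 3.58.1 in R 4.3.3, tested on simulated data, and p-values were adjusted by Benjamini-Hochberg across 30634 probes. Single genes were also tested by an exact 2-sided permutation over 70 assignments of mice. Correlations were computed in Python 3.11.15 with exact 2-sided p-values, adjusted over 16001 named genes in place of the oocyte genes alone, which had been the plan. The number of arrays limits the precision.

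Whether the replicate numbers of the labels pair the mice was checked on deviations from group means. Same-numbered arrays correlated at 0.504, 0.180, 0.273 and 0.213, so the numbers were treated as pairs in an alternative. Differently numbered arrays correlated at -0.521 to 0.370. The highest of these, pioglitazone mouse 3 with vehicle mouse 2, exceeded the same-numbered value of either mouse. Whether the numbers mark true pairs is therefore not settled by these values.

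The genes, lists and tests were chosen with earlier results of these data known. Values of all 8 mice were to be given for genes called at an unadjusted p under 0.05 or without overlap, the zona and maternal complex genes, the 5 brightest, the 3 most variable, and Gdf9 and Bmp15. Of the marker lists, those called and the 2 brightest mast cell and endothelial genes were named, and besides Emcn the called ones were Fst of granulosa and Cnn1 and Myh11 of smooth muscle, all higher. Other genes given in full, those nearest to Zp3, the markers set against Zp3, Hsd3b1 and the fat cell genes named were chosen after their values were seen. Alternatives were other floors, normalizations, filters and probes, a trend in eBayes, the methods' t-test, the replicate block and each mouse left out. Correlations with the replicate-number means removed were added after seeing the data.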

Additional observations from a re-analysis of the deposited data

Results flagged for a closer look

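In 4 of the 78 groups of 4 mice checked, the gap between 1 mouse and its nearest neighbour, as a share of the range of the group, exceeded the critical value of Dixon's test, and chance gives about 1 in 20. Nobox, a homeobox factor of the early oocyte, was 2.13 units in vehicle mouse 3, against 1.18 to 1.27 units in the other vehicle-treated mice. Pou5f1 was 3.91 units in pioglitazone mouse 1, against 2.58 to 2.79 units in the other pioglitazone-treated mice. Gja4 was 2.85 units in pioglitazone mouse 4, against 3.19 to 3.25 units in the other pioglitazone-treated mice. Mos, the kinase that holds the egg in meiotic arrest, was 0.541 units in vehicle mouse 4, against 0.427 to 0.445 units in the other vehicle-treated mice.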

How the results depend on the processing

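The count of probes called at an unadjusted p under 0.05 was 1685, became 2635 with the replicate block, and ranged between 737 (without pioglitazone mouse 4) and 2443 (without pioglitazone mouse 1) when 1 mouse was left out. The split of 603 higher and 1082 lower became 686 and 803 with quantile and 718 and 817 with cyclic loess normalization. The count of oocyte genes called lower, 2, was 1 with quantile normalization, without the filter and with the replicate block, 0 with cyclic loess, and 0 (without pioglitazone mouse 4) to 4 (without pioglitazone mouse 1) with 1 mouse left out. The count called higher, 0, was 1 (Dnmt3l) without the filter and 0 to 1 with 1 mouse left out. Padi6 was not called with quantile (-0.20), cyclic loess (-0.20), no filter, the replicate block or the intensity trend, and Gja4 was not called with cyclic loess (-0.28). The log2 fold change changed sign for Zp1 (0.010 quantile, 0.018 cyclic loess), H1f8 (0.017 quantile, 0.058 cyclic loess) and Nlrp4e (0.067 with a floor of 0.2). With 1 mouse left out it ranged over -0.061 to 0.30 for Zp3, -0.069 to 0.22 for Ooep, -0.044 to 0.71 for Tle6, -0.27 to 0.16 for H1f8, -0.13 to 0.29 for Zar1, -0.70 to 0.27 for Kit and -0.42 to 0.25 for Nlrp4e. The median correlation between oocyte genes, 0.374, was 0.441 with group means removed and 0.266 (without vehicle mouse 4) to 0.452 (without vehicle mouse 3) with 1 mouse left out. The median correlation with Zp3, 0.720, was 0.642 without pioglitazone mice 1 and 3. With the replicate block and group means removed, chosen after seeing the data, these medians were 0.561 between oocyte genes and 0.636 with Zp3. The causes of these changes were not tested. With 4 mice a group, differences smaller than the spread between mice were not detectable. Values of Tle6, Nlrp4e and Dnmt3l lay near or under the limit of sensitivity of 0.2 units, which limits what can be read from them.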
